A study of Mus musculus with 4 samples.

Results

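The 26 genes described here encode receptors for the inhibitory transmitters GABA and glycine and the proteins that anchor those receptors, clear the transmitters and set the chloride gradient. They were chosen by name: the rows of the deposited expression table whose gene name is a GABA-A, GABA-B or glycine receptor subunit, the scaffold gephyrin, an uptake carrier or a chloride carrier on the list. All 26 were found, each on 1 row, among 20793 rows with 20462 gene names. The series asked what loss of the transcriptional repressor CIC (capicua) does to the developing mouse brain. RNA was taken from brains at postnatal day 1, with no word in the labels on which parts were included, and sequenced in 2 wild-type (WT) and 2 CIC knockout libraries, with replicate letters A and B in each group. The knockout animals carry Nes-Cre, a recombinase gene under Nestin regulatory sequence that is active in neural progenitors and the neurons and glia they form, together with 2 loxP-flanked alleles of Cic (CIClox/lox); cells of other origin keep the gene. The labels of the WT animals conflict, since their titles give a floxed, Cre-negative animal (L_L, Cre_minus) and their genotype field gives Nes-Cre;CIC+/+, so whether the WT animals carry Cre is not settled. The strain was not given in the sources used here. Neither do the labels state that the libraries come from separate animals, so p-values measure the spread between these samples, which may be technical.

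GABA-A and glycine receptors are pentameric chloride channels, built mostly from alpha with beta and gamma or delta subunits in the first case and from alpha with beta subunits in the second. GABA-B receptors are G protein-coupled dimers. In newborn rodent brain many neurons still hold a high chloride concentration, because the importer NKCC1 (Slc12a2) is active before the extruder KCC2 (Slc12a5) reaches its mature level, and GABA can then depolarise them. The subunit mix also changes with age and differs between brain regions, with glycine transmission strongest in brainstem and spinal cord.

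Values are FPKM, fragment counts normalised for transcript length and library yield, with column sums of 440005 to 449559. Total depth is unknown, and relative depth, read from the spacing of low values, ran from 1 (WT A) over 1.04 (knockout B) and 1.21 (WT B) to 1.22 (knockout A). Cic itself had 51.3 and 56.4 FPKM in WT and 19.1 and 22.2 FPKM in the knockout libraries, a log2 difference of -1.34 that missed the threshold (limma's adjusted p 0.213). Knockout B stood apart from the other libraries: its root mean square difference from them over 12703 rows was 0.393 to 0.458 on the log2(FPKM + 1) scale, against 0.187 between the WT libraries and 0.254 to 0.289 between knockout A and the WT libraries. Markers of brain regions differed with it. The summed level of 12 cortical projection neuron genes was 814 and 839 FPKM in WT, with knockout A at 659 and knockout B at 439, and that of 15 hindbrain and spinal cord genes was 0.0813 and 0.216 FPKM in WT, with knockout A at 0.125 and knockout B at 33.5. The values of the 26 genes are therefore given for each knockout library.

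None of the 26 genes passed the test between knockout and WT, the 6 lowest being fitted only with no filter on low values. Of the 26, 20 had a mean of at least 1 FPKM and entered limma's fit over 12703 rows, in which the lowest adjusted p of any of them was 0.411. Over all rows 0.0236% were called higher and 0.0236% lower at an adjusted p under 0.05. At an unadjusted p under 0.05, 6 of the 20 were higher in knockout (Slc12a5, Gabrg1, Slc6a9, Gabra3, Gabbr2 and Slc6a11), beside 6.61% of all rows, and 0 were lower, beside 3.54% of all rows. In 7 of the 20 both knockout values exceeded both WT values, beside 27.1% of all rows, and in 2 both were smaller, beside 21.7%. The median log2 difference over the 20 was -0.01, and 0.02 over all rows; without the glycine carrier gene Slc6a5, which entered the fit through knockout B alone, it was -0.07. An exact permutation test of 2 against 2 libraries gives no two-sided p smaller than 0.33.

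The knockout libraries gave different pictures of these genes. In knockout A, 2 of the 20 lay at least 0.5 above the WT mean on the log2(FPKM + 1) scale and 0 lay that far below, beside 2.42% and 0.819% of all rows. In knockout B, 5, Slc6a5 among them, lay at least 0.5 above and 5 at least 0.5 below, beside 8.11% and 7.65% of all rows. The median difference from the WT mean was 0.13 for knockout A and -0.12 for knockout B. With knockout B left out limma called 0 of the 20 (8 were higher and 0 lower at an unadjusted p under 0.05), beside 0.126% of all rows called higher and 0.0866% lower. With knockout A left out it called 6 higher and 8 lower, in a fit that also called 17.9% of all rows higher and 16.0% lower and whose spread comes only from the WT libraries.

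**Figure D1:**
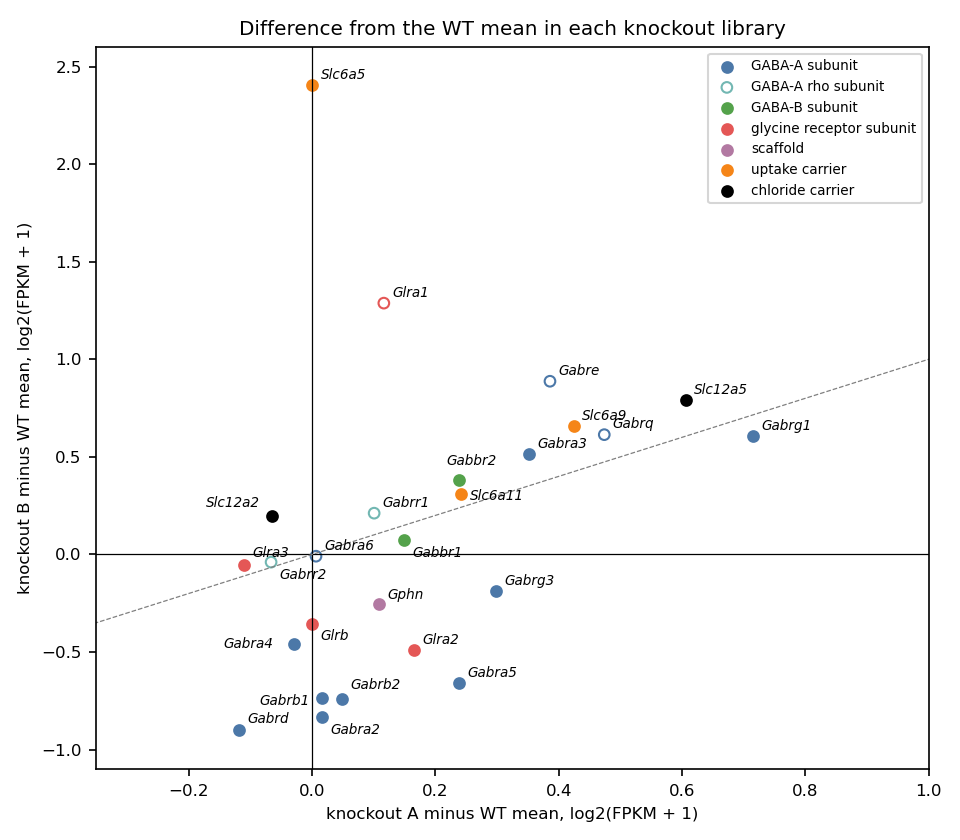
Difference from the WT mean in knockout A (horizontal) and knockout B (vertical) for each of the 26 genes on the log2(FPKM + 1) scale, coloured by role; open symbols are genes under a mean of 1 FPKM, and the dashed line marks equal differences. Slc12a5 and Gabrg1 are above 0.6 in both libraries, and Gabra2, Gabrb1, Gabrb2 and Gabra5 are near or above 0 in knockout A and below -0.6 in knockout B.

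**Figure D2:**
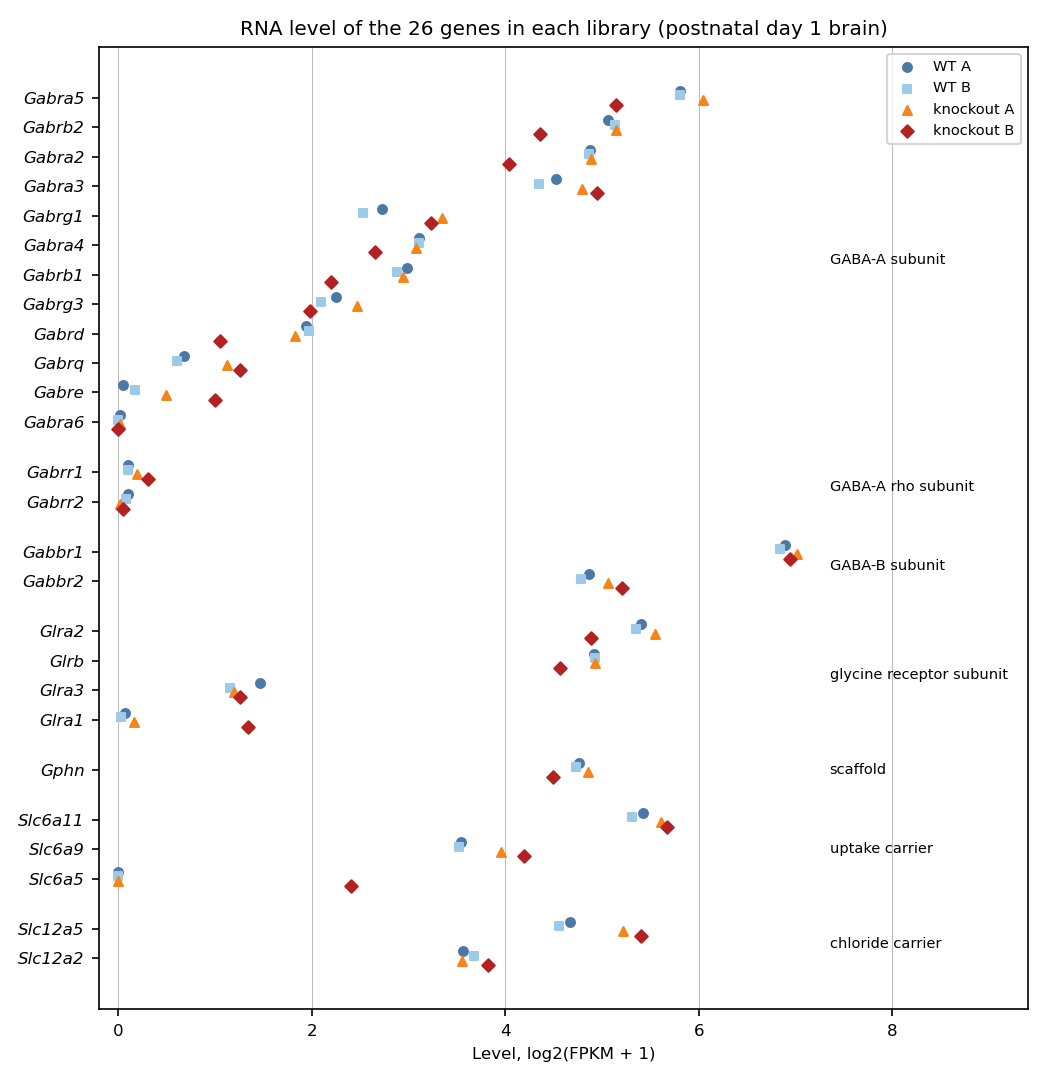
Level of each of the 26 genes on the log2(FPKM + 1) axis in each of the 4 libraries (circle and square, WT A and B; triangle, knockout A; diamond, knockout B), grouped by role. Knockout B is the lowest library for Gabra2, Gabra5, Gabrb1, Gabrb2 and Gabrd, and both knockout points are right of both WT points for Slc12a5, Gabrg1 and Slc6a9.

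Gabra5, Gabra2 and Gabrb2, the 3 GABA-A genes on the list with the highest mean FPKM, were lowest in knockout B and highest in knockout A. Gabra5, the alpha subunit typical of hippocampus and of extrasynaptic receptors (mm9, chromosome 7, 64663039 to 64765379), had the highest level per length of the GABA-A genes on the list. It was at 54.8 FPKM in WT A and 55.0 in WT B, with knockout A at 65.0 and knockout B at 34.4. The WT libraries were almost the same, knockout A was the highest library and knockout B the lowest, so the groups overlapped. Its log2 difference came to -0.21 ± 0.31 (SE), and limma gave an adjusted p of 0.782; without knockout B the difference was 0.24.

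Gabra2, an alpha subunit prominent in young forebrain neurons, was at 28.3 FPKM in WT A and 28.2 in WT B, with knockout A at 28.6 and knockout B at 15.4. Gabrb2, a beta subunit, whose class forms part of the GABA binding site, was at 32.4 FPKM in WT A and 34.2 in WT B, with knockout A at 34.4 and knockout B at 19.5. In both genes 3 libraries were alike and knockout B stood below them, at a log2 difference from the WT mean of -0.83 for Gabra2 and -0.74 for Gabrb2. Limma's adjusted p was 0.591 for Gabra2 and 0.618 for Gabrb2. With knockout A left out the log2 difference is that of knockout B alone, -0.83 for Gabra2 and -0.74 for Gabrb2.

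Knockout B was also the lowest library for 3 subunit genes of lower level. Gabrb1, another beta subunit, was at 6.90 FPKM in WT A and 6.35 in WT B, with knockout A at 6.70 and knockout B at 3.57. Gabra4, an alpha subunit of striatal, thalamic and hippocampal neurons in the adult, was at 7.62 and 7.63 FPKM in WT, with knockout A at 7.45 and knockout B at 5.28. Gabrd, the delta subunit of extrasynaptic receptors, was at 2.82 and 2.90 FPKM in WT, with knockout A at 2.55 and knockout B at 1.07. For Gabra4 and Gabrd both knockout values were below both WT values, as were those of 21.7% of all rows. Knockout A was at -0.03 and -0.12 from the WT mean on the log2 scale. The log2 differences were -0.36 ± 0.26 for Gabrb1, -0.24 ± 0.17 for Gabra4 and -0.51 ± 0.27 for Gabrd (SE), and limma gave an adjusted p of 0.593, 0.578 and 0.547.

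Cortical markers were lower too: 11 of 12 cortical projection neuron genes had both knockout values below both WT values, beside 21.7% of all rows. At an unadjusted p under 0.05 in limma 7 were lower, beside 3.54% of all rows. The markers had median differences of -0.34 (knockout A) and -0.77 (knockout B), and 0 passed the test. Their part in the subunit levels was not tested. In brain RNA fewer cells of a type and less RNA per cell cannot be told apart.

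Gabra3, an alpha subunit that is abundant before birth in many regions, went the other way. It was at 22.0 FPKM in WT A and 19.4 in WT B, with knockout A at 26.6 and knockout B at 29.9 (20.7 ± 1.79 in WT and 28.3 ± 2.34 in knockout, SD, n = 2 each). Both knockout libraries were above both WT libraries. Its log2 difference came to 0.43 ± 0.12 (SE), with an unadjusted limma p of 0.0162 and limma's adjusted p of 0.466. Without knockout B the difference was 0.35 and the adjusted p 0.216.

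The mix of alpha subunits in knockout B differed accordingly. Of the summed FPKM of Gabra2 to Gabra6, Gabra3 made up 19.5% in WT A and 17.6% in WT B, with knockout A at 20.9% and knockout B at 35.2%. Gabra5 made up 48.6%, 49.9%, 50.9% and 40.4% in the same order of libraries, and Gabra2 made up 25.1%, 25.6%, 22.4% and 18.1%. For each of these 3 genes knockout A lay closer to both WT libraries than knockout B did. The summed level of these alpha genes was 113 and 110.2 FPKM in WT, with knockout A at 128 and knockout B at 85.0. Other alpha subunit genes are not part of these sums.

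**Figure D3:**
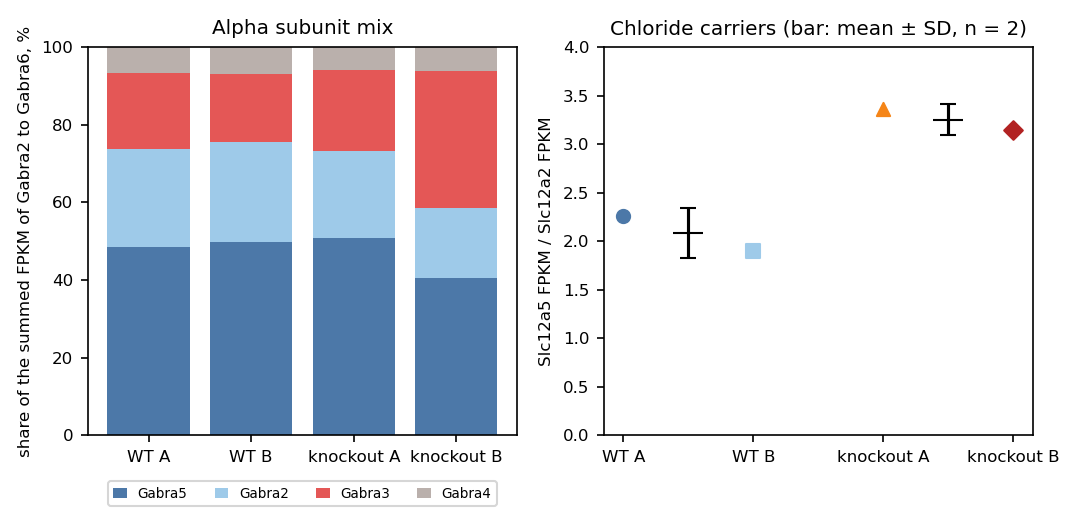
Left, share of Gabra5, Gabra2, Gabra3 and Gabra4 in the summed FPKM of Gabra2 to Gabra6 in each library, in percent (Gabra6, at most 0.0113%, is too small to draw); Gabra3 takes 35.2% in knockout B. Right, FPKM of Slc12a5 divided by FPKM of Slc12a2 in each library, with the group mean and SD (n = 2); the knockout libraries are at 3.36 and 3.14 and the WT libraries at 2.26 and 1.90.

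Most GABA-A genes sit in clusters, and neighbours did not always differ from WT in the same direction. On chromosome 5 (mm9, 71142286 to 72528483) the order in the deposited table is Gabrg1, Gabra2, Gabra4 and Gabrb1, with gaps of 118, 474 and 41.7 kb and 1 other row between Gabra2 and Gabra4. Gabrg1 encodes a gamma subunit found in glia and in neurons of selected nuclei, and it was at 5.62 FPKM in WT A and 4.78 in WT B, with knockout A at 9.15 and knockout B at 8.42. Both knockout libraries were well above both WT libraries, whereas the 3 neighbours were lowest in knockout B. The means were 5.20 ± 0.596 FPKM in WT and 8.79 ± 0.520 in knockout (SD, n = 2 each). Its log2 difference came to 0.66 ± 0.12 (SE), with an unadjusted limma p of 0.00289 and limma's adjusted p of 0.411, and 0.71 with an adjusted p of 0.106 without knockout B.

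The promoters of these neighbours are shown because Gabrg1 and Gabra2, next to each other in the cluster, differed from WT in opposite ways in knockout B. They are RefSeq windows of 300 bases (250 before and 50 after the start) in build GRCm38.p6, both on the minus strand, at chr5:70842568-70842867 for Gabrg1 and chr5:71095800-71096099 for Gabra2. CG dinucleotides are in capitals.
Gabrg1: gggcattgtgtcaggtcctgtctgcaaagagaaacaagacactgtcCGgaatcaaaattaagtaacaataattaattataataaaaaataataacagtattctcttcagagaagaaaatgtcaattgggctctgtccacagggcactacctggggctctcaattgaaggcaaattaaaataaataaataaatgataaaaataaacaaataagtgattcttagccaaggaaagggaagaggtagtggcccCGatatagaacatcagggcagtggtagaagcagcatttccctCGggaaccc
Gabra2: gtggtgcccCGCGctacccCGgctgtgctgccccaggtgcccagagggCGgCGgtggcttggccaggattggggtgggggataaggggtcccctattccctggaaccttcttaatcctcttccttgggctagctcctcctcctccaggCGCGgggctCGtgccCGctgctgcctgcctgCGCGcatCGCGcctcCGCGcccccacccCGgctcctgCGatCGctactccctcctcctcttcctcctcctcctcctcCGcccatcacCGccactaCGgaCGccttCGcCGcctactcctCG
The Gabrg1 window holds 3 CG dinucleotides with a GC content of 38.3%, and the Gabra2 window 25 with 70.0%. The median over all 32851 windows is 7, with a GC content of 52.7%. These are features of the reference sequence, and no methylation or binding was measured.

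On the X chromosome (mm9, 69502771 to 70083883) Gabre, Gabra3 and Gabrq lie in this order with gaps of 158 and 169 kb, with 1 other row of the table between Gabre and Gabra3. All 3 were higher in both knockout libraries than in both WT libraries, as were 27.1% of the rows in the main test. Gabrq, the theta subunit of hypothalamic and monoaminergic neurons, was at 0.605 FPKM in WT A and 0.525 in WT B, with knockout A at 1.17 and knockout B at 1.39. Gabre, the epsilon subunit with a similar distribution, was at 0.0336 and 0.127 FPKM in WT, with knockout A at 0.410 and knockout B at 0.996. Gabrq and Gabre had means under 1 FPKM and were outside the main test. With no filter on low values their log2 differences were 0.54 ± 0.08 and 0.64 ± 0.20 (SE) on the log2(FPKM + 1) scale, on which low genes show less of their change, with limma's adjusted p of 0.477 and 0.508.

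Hypothalamic and septal markers were also higher in both knockout libraries: their summed level over 9 genes was 51.0 and 36.0 FPKM in WT, with knockout A at 130 and knockout B at 191. Most of each sum came from Hap1, at 41.3 and 30.2 FPKM in WT, with knockout A at 96.1 and knockout B at 158. All 5 of the genes tested had both knockout values above both WT values, beside 27.1% of all rows. At an unadjusted p under 0.05 in limma 5 were higher, beside 6.61% of all rows. The median differences over the 5 were 1.42 (knockout A) and 1.79 (knockout B), and 0 passed the test. Oxt, the oxytocin gene, was at 0 in WT B. Their part in the levels of Gabre, Gabra3 and Gabrq was not tested.

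A promoter window of Gabra3 (GRCm38.p6, minus strand, chrX:72656758-72657057) is shown because it contains no CG dinucleotide, unlike those of its neighbours Gabre and Gabrq, which hold 24 and 23.
Gabra3: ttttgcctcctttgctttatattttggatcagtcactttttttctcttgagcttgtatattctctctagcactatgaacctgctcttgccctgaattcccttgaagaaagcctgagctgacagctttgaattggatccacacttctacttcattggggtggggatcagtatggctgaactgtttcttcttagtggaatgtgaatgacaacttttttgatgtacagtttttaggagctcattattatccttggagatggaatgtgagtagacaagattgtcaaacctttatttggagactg
The other RefSeq window of Gabra3 also holds 0. The part of promoter composition in the levels of the 3 neighbours was not tested.

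The remaining GABA-A subunits were low or did not separate the groups. Gabrg3, a gamma subunit 20.8 kb from Gabra5 on chromosome 7, was at 3.76 FPKM in WT A and 3.26 in WT B, with knockout A at 4.54 and knockout B at 2.96. As for Gabra5, knockout A was the highest library and knockout B the lowest. Gabra6, the alpha subunit of cerebellar granule cells, was listed at 0 in WT B and knockout B and at 0.0128 and 0.0107 FPKM in WT A and knockout A. Gabrr1, a rho subunit best known from retina, was at 0.0673 FPKM in WT A and also in WT B, with knockout A at 0.144 and knockout B at 0.236. The other rho gene, Gabrr2, was at 0.0675 and 0.0563 FPKM in WT and at 0.0139 and 0.0332 in the knockout libraries. At such levels a few fragments set the value, and no difference is drawn from them.

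Both GABA-B subunit genes were slightly higher in the knockout libraries. Gabbr1, which binds GABA (mm9, chromosome 17, 37182911 to 37211250), had the highest level per length of all 26 genes, at 118 FPKM in WT A and 113 in WT B, with knockout A at 128 and knockout B at 122. Gabbr2, which couples to the G protein, was at 28.1 and 26.5 FPKM in WT, with knockout A at 32.4 and knockout B at 35.9. In both genes the 2 knockout values were above both WT values, as were those of 27.1% of all rows. On the log2 scale knockout exceeded WT by 0.11 ± 0.09 for Gabbr1 and 0.31 ± 0.10 for Gabbr2 (SE), and limma gave an adjusted p of 0.632 and 0.484. The ratio of Gabbr1 to Gabbr2 FPKM was 4.20 and 4.27 in WT, with knockout A at 3.96 and knockout B at 3.39.

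Glycine receptor RNA was mostly Glra2 and Glrb in every library. Glra2, the alpha subunit of immature receptors (mm9, X chromosome, 161566949 to 161764913), was at 41.2 FPKM in WT A and 39.9 in WT B, with knockout A at 45.6 and knockout B at 28.6. Glrb, the beta subunit that binds gephyrin, was at 29.1 and 29.4 FPKM in WT, with knockout A at 29.3 and knockout B at 22.7. Both were lowest in knockout B and within or above the WT range in knockout A, as for Gabra2 and Gabrb2. Their log2 differences were -0.16 ± 0.23 and -0.18 ± 0.15 (SE), and limma gave an adjusted p of 0.777 and 0.628. Glra3, a minor alpha subunit, was at 1.76 and 1.22 FPKM in WT and 1.29 and 1.38 in the knockout libraries, and here the WT libraries differed more than the group means. Gphn, which encodes the gephyrin scaffold, was at 26.1 and 25.5 FPKM in WT, with knockout A at 27.9 and knockout B at 21.5, a log2 difference of -0.07 ± 0.15 (SE) at an adjusted p of 0.848 in limma.

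Genes of mature, caudal glycine transmission were much higher in knockout B than in any other library. Slc6a5, the neuronal glycine carrier GlyT2 that marks glycinergic neurons (mm9, chromosome 7, 57165669 to 57214863), was listed at 0 in WT A, WT B and knockout A and was at 4.30 FPKM in knockout B. Glra1, the alpha subunit of adult spinal cord and brainstem receptors, was at 0.0490 and 0.0204 FPKM in WT, with knockout A at 0.121 and knockout B at 1.53. Glra1 made up 4.85% of the summed Glra1, Glra2 and Glra3 FPKM in knockout B and at most 0.259% in the other libraries. No fold change is given for Slc6a5, and limma's adjusted p over all libraries was 0.576. Without knockout B it was at 0 in every library left. For Glra1 the adjusted p with no filter was 0.595.

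Hindbrain and spinal cord markers showed the same split between libraries. Of the 15 genes, mostly Hox genes, 13 were listed at 0 in WT A and 7 in WT B, 10 in knockout A, and 0 in knockout B. Midbrain and cerebellar markers summed to 13.04 and 18.99 FPKM in WT, with knockout A at 38.2 and knockout B at 105, and thalamic markers to 28.5 and 27.0 FPKM in WT, with knockout A at 33.4 and knockout B at 133. Most of the midbrain and cerebellar sum in knockout A came from Zic1 (28.6 FPKM) and Zic4 (8.16 FPKM), and the median log2 difference from the WT mean over the 6 tested genes of that list was -0.08 in knockout A and 2.34 in knockout B. Their part in the values of Slc6a5 and Glra1 was not tested. Slc6a5 thus set knockout B apart from the other 3 libraries rather than one group from the other. For Glra1 knockout A, at 0.121 FPKM, was also above both WT libraries, with knockout B much higher at 1.53 FPKM.

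**Figure D4:**
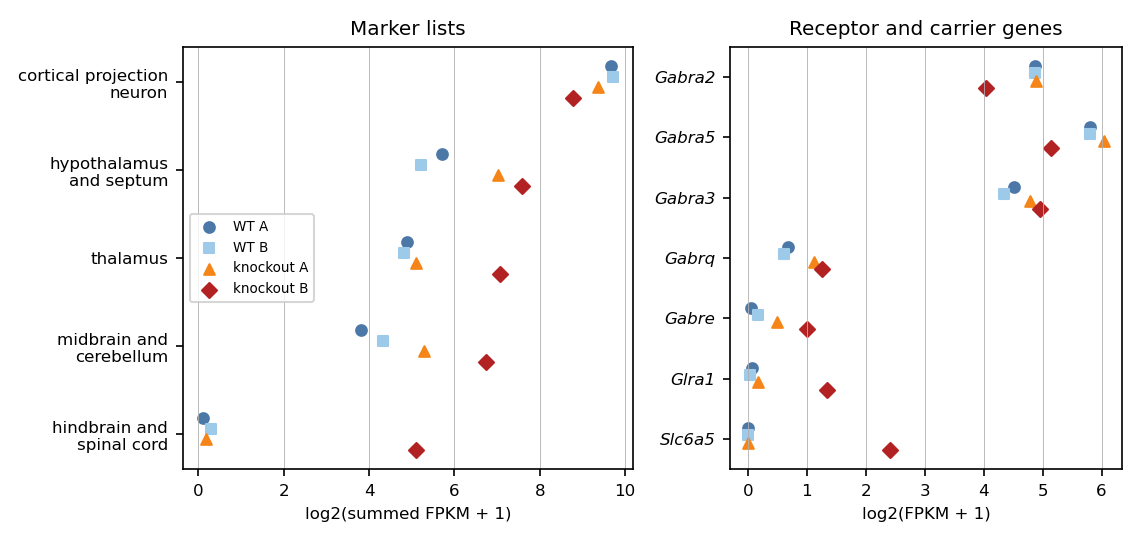
Left, summed level of 5 marker lists of brain regions on the log2(summed FPKM + 1) axis in each library. Right, levels of 7 receptor and carrier genes on the log2(FPKM + 1) axis in the same libraries. Slc6a5 and Glra1 are much higher in knockout B than in any other library, as are the hindbrain and spinal cord markers. Gabrq and Gabre are higher in both knockout libraries, as are the hypothalamic and septal markers.

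The carriers that glia use to clear GABA and glycine were higher in both knockout libraries. Slc6a9, the glycine carrier GlyT1 found mainly in astrocytes (mm9, chromosome 4, 117507863 to 117541910), was at 10.7 FPKM in WT A and 10.5 in WT B, with knockout A at 14.5 and knockout B at 17.3. Its means were 10.6 ± 0.124 FPKM in WT and 15.9 ± 1.93 in knockout (SD, n = 2 each). Its log2 difference came to 0.54 ± 0.12 (SE), with an unadjusted limma p of 0.00699 and limma's adjusted p of 0.417, and 0.42 with an adjusted p of 0.113 without knockout B. Slc6a11, the astrocytic GABA carrier GAT-3, was at 41.9 and 38.6 FPKM in WT, with knockout A at 47.7 and knockout B at 50.1. Its log2 difference was 0.28 ± 0.10 (SE), with an unadjusted limma p of 0.0423 and limma's adjusted p of 0.485.

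Neither carrier gene overlapped between the groups. Astrocyte and radial glia markers summed to 937 and 954 FPKM in WT, with knockout A at 1049.65 and knockout B at 999.8. Of the 9, all tested, 5 had both knockout values above both WT values and 1 (Fabp7) had both below, beside 27.1% and 21.7% of all rows. At an unadjusted p under 0.05 in limma 4 were higher, beside 6.61% of all rows. The median log2 difference was 0.25, and 0 passed the test. None of the 9 was at 0 in any library, and their part in the carrier levels was not tested.

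Slc12a5, the chloride extruder KCC2 of neurons (mm9, chromosome 2, 164793488 to 164825231), had one of the 2 largest log2 differences, with Gabrg1, among the tested members with a value above 0 in all libraries. It was at 24.4 FPKM in WT A and 22.4 in WT B, with knockout A at 36.1 and knockout B at 41.1. Both knockout libraries were above both WT libraries, with means of 23.4 ± 1.39 FPKM in WT and 38.6 ± 3.56 in knockout (SD, n = 2 each). Its log2 difference came to 0.70 ± 0.11 (SE), with an unadjusted limma p of 0.00218 and limma's adjusted p of 0.411, short of the 0.05 threshold. It was 0.61 without knockout B and 0.79 without knockout A, with 1 knockout library left in each case. Gabrg1 had the larger difference of the pair with a pseudocount of 0.1 (0.75 against 0.72) and without knockout B (0.71 against 0.61), and without WT A both were at 0.76. With the pseudocount of 0.1 Gabrd, at -0.75, was also further from 0 than Slc12a5.

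Slc12a2, the chloride importer NKCC1, did not separate the groups. It was at 10.8 FPKM in WT A and 11.8 in WT B, with knockout A at 10.7 and knockout B at 13.1, a log2 difference of 0.07 ± 0.13 (SE) at an adjusted p of 0.837 in limma. Slc12a5 was above Slc12a2 in FPKM in all 4 libraries. Their FPKM ratio was 2.26 in WT A and 1.90 in WT B, with knockout A at 3.36 and knockout B at 3.14, or 2.08 ± 0.255 in WT and 3.25 ± 0.155 in knockout (SD, n = 2 each). On the log2(FPKM + 1) scale the ratio was higher in knockout by 0.63, and between 0.51 and 0.75 with each library left out in turn. An FPKM ratio within a library does not depend on how that library was scaled. It does not show which of the carriers differed.

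RefSeq lists 2 starts for Slc12a5, and both promoter windows are shown because its log2 difference was among the largest and the deposited value does not separate the transcripts. They are in GRCm38.p6 on the plus strand, at chr2:164960596-164960895 and chr2:164967738-164968037, with CG dinucleotides in capitals.
Slc12a5, first start: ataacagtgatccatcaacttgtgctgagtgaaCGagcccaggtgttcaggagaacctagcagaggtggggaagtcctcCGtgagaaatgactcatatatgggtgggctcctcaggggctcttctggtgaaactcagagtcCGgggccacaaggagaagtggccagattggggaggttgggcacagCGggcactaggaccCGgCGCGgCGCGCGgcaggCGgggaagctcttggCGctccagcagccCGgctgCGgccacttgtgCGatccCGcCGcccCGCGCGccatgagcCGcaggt
Slc12a5, other start: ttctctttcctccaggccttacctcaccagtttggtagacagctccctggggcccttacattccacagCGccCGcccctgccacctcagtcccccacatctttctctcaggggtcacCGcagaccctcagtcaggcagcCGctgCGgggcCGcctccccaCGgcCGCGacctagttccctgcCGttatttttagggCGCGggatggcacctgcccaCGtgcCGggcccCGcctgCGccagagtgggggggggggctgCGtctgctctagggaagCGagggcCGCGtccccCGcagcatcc
Each window holds 21 CG dinucleotides.

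CIC binds 8-base sites of the forms TGAATGAA, TGAATGGA, TCAATGAA and TCAATGGA, and these 4 octamers were searched on both strands of the RefSeq windows. Of the 26 genes 23 had at least 1 window in the set kept for this search, 31 windows in all. Gabrd, Glra1 and Slc12a2 had none in that set, which does not show that RefSeq lists no start for them. An octamer was in 1 of the 31, and in 1260 of all 32851 windows (3.84%). The match is in Gabrg3 (GRCm38.p6, minus strand, chr7:57387166-57387465), which is shown for that reason, with the octamer in capitals as the reverse complement of TGAATGGA.
Gabrg3: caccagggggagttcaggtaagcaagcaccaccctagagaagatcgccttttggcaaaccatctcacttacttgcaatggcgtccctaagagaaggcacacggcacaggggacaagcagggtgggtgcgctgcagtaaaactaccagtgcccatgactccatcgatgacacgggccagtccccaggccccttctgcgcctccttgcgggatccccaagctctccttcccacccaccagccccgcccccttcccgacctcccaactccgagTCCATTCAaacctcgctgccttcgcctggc
It starts 20 bases after the transcription start. Gabrg3 had a log2 difference of 0.06 ± 0.19 (SE), and limma gave an adjusted p of 0.912. The windows of Slc12a5, Gabrg1, Slc6a9 and Gabra3 hold none of these octamers, which says nothing of sites elsewhere.

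Other genes of inhibitory transmission were read from 4 lists, in which 0 genes passed the test. Of 8 genes for GABA supply, breakdown and uptake 7 were tested, 5 had both knockout values above both WT values (27.1% of all rows did) and 1, the glutamine carrier Slc38a1, had both below (21.7% of all rows). At an unadjusted p under 0.05 in limma, 4 were higher and 0 lower, beside 6.61% and 3.54% of all rows. The median difference from the WT mean was 0.40 for knockout A, with knockout B at 0.29. Slc38a1 was at 38.7 and 38.6 FPKM in WT, with knockout A at 34.7 and knockout B at 34.4. Gad1, a GABA-synthesising enzyme, was at 52.8 and 48.7 FPKM in WT, with knockout A at 77.3 and knockout B at 70.3 (log2 difference 0.53 ± 0.11, SE; limma's adjusted p of 0.417). Slc32a1, the vesicular carrier that loads GABA and glycine, was at 24.5 and 23.2 FPKM in WT, with knockout A at 39.1 and knockout B at 27.1. Markers of inhibitory neurons, which share 3 genes with this list, summed to 761 and 733 FPKM in WT, with knockout A at 922 and knockout B at 584. Their median log2 difference was -0.01, with opposite medians of 0.36 for knockout A and -0.40 for knockout B. Of those 10 genes 2 were higher and 0 lower at an unadjusted p under 0.05 in limma, beside the same 6.61% and 3.54% of all rows. The 2 were Gad1 and Gad2, both shared with the GABA supply list.

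Of 19 genes for receptor assembly, anchoring and trafficking, all tested, 7 lay above and 5 below both WT libraries, beside 27.1% and 21.7% of all rows. The median log2 difference was -0.04, with 0.02 for knockout A and -0.04 for knockout B. At an unadjusted p under 0.05 in limma, 3 genes were higher and 1 lower, beside 6.61% and 3.54% of all rows. Kctd8 and Kctd12, auxiliary subunits of GABA-B receptors, differed most and in opposite directions. Kctd8 was at 4.91 and 3.75 FPKM in WT, with knockout A at 7.65 and knockout B at 5.59, and Kctd12 was at 49.0 and 49.8 FPKM in WT, with knockout A at 39.98 and knockout B at 35.1. Limma's adjusted p was 0.488 for Kctd8 and 0.470 for Kctd12.

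Of 16 genes for chloride and cation-chloride regulation 14 were tested. Of these 6 lay above and 0 below both WT libraries, beside the same 27.1% and 21.7% of all rows. The median log2 difference was 0.12, or 0.06 for knockout A and 0.14 for knockout B. At an unadjusted p under 0.05 in limma, 1 was higher and 0 lower, beside 6.61% and 3.54% of all rows. The chloride carrier Slc12a9 (8.07 and 9.10 FPKM in WT, with knockout A at 9.999 and knockout B at 12.2) and the chloride channel Clcn2 (11.9, 12.6, 14.8 and 16.0 FPKM in the same order) differed most. The KCC paralogues Slc12a4 and Slc12a7 had smaller log2 differences than Slc12a5, -0.06 ± 0.10 and 0.18 ± 0.24 (SE), with limma's adjusted p of 0.81 and 0.752. From the WT mean, Slc12a4 differed by -0.01 (knockout A) and -0.11 (knockout B), and Slc12a7 by -0.14 (knockout A) and 0.50 (knockout B). The kinases that set the phosphorylation of the carriers, Wnk1, Wnk2, Wnk3, Stk39 and Oxsr1, had log2 differences of 0.05 to 0.15, with 0.01 to 0.16 in knockout A and 0.07 to 0.16 in knockout B.

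In the list of other receptor subunits, Gabrp, Gabrr3 and Glra4 were at most 0.180 FPKM in any library.

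Markers of the other cell types brain tissue holds had 0 genes past the test in the 6 lists given here. At an unadjusted p under 0.05 in limma 0 were lower, beside 3.54% of all rows. Of 7 microglial genes 3 were higher, and of 5 meningeal genes 2, beside 6.61% of all rows. Summed levels were 96.1 and 100.5 FPKM in WT, with knockout A at 104 and knockout B at 93.3 for the oligodendrocyte lineage. They were 92.1, 109.6, 106 and 102 FPKM in that order for endothelium and mural cells, 62.3, 72.9, 82.5 and 134 for microglia, and 56.8, 80.6, 94.4 and 112 for meninges and fibroblasts. Choroid plexus and ependyma genes summed to 169 and 516 FPKM in WT, with knockout A at 1003.74 and knockout B at 1079. Of these 7 genes 6 were higher at an unadjusted p under 0.05, beside the same 6.61% of all rows. Haemoglobin and other blood genes summed to 287 and 188 FPKM in WT, 99.2 in knockout A, where 4 of 7 rows were listed at 0, and 1197 in knockout B. Both Hba-a1 rows were among those at 0 in knockout A, and were at 45.1 to 116.6 FPKM in WT. Hbb-b2 was not low in knockout A, with 92.8 and 58.6 FPKM in WT, knockout A at 90.0 and knockout B at 494. Nor was Alas2, with 8.88 and 5.76 FPKM in WT, knockout A at 9.25 and knockout B at 40.1. The part of these cells in the receptor and carrier levels was not tested.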

How the data were processed

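RNA of 4 brain libraries was analysed, 2 WT and 2 CIC knockout, grouped and lettered by their titles. Column-purified, DNase-treated total RNA went into Illumina libraries, per the labels' protocols, with RNA selection and strandedness not stated there. Tools named in the submitters' processing notes, with no order or settings, are Cufflinks 2.1.1, TopHat2 2.0.11, cutadapt and bcl2fastq 2.17; the build is mm9. The authors deposited FPKM per gene row and library, a unit inferred from Cufflinks and the values.

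Rows with a mean of at least 1 FPKM (12703) were fitted as log2(FPKM + 1) in limma 3.58.1 (R 4.3.3; lmFit, eBayes, trend and robust off, no covariate, 2 residual and 2.63 prior degrees of freedom), two-sided, adjusted by Benjamini-Hochberg over all rows at 0.05. The calculation was tested on simulated data. FPKM gives no counts, so no counting interval was computed. Relative depth came from the most common ratio to WT A among values between 0 and 0.15 FPKM, assuming equal fragment numbers. Without strand, reads of overlapping genes cannot be told apart. Starts in mm9 were raised by 1 to count from 1, and promoter sequences are RefSeq's in GRCm38.p6.

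The 26 genes, 4 pathway lists and 13 marker lists were chosen with earlier results of these data known. Every one of the 26 is named, with the 2 tested genes of largest difference in each pathway list. The KCC and kinase genes, Fabp7, Zic1, Zic4, Slc38a1, Hba-a1, Hbb-b2, Alas2 and the untested receptor subunits were named after their values were seen. Results for a few listed genes are not reported here. Alternatives covered pseudocount, filter, rescaling, a mean-variance trend, the letter as a block, and each library left out. Leaving out 13 rows that combine a 0 with 10 FPKM or more was added after seeing the data.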

Additional observations from a re-analysis of the deposited data

How the results depend on the processing

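With all 4 libraries kept, limma called 0 of the members in each fit under 7 settings. The fit with no filter held 26 members, that at a mean of 5 FPKM or more 16, and the others 20. At an unadjusted p under 0.05 in limma, 4 to 8 of them were higher and 0 lower. Only the pseudocount and the rescaling could alter a log2 difference, since the other settings leave it as in the main fit. Under each of the 2 the 20 tested members kept their direction. Over all rows, 3 genes were called higher and 3 lower. The count called higher was 1 with a pseudocount of 0.1, and 0 with no filter on low values (1151 higher at an unadjusted p under 0.05). With the 13 rows holding a 0 beside 10 FPKM or more left out, 0 were called higher and 0 lower (850 and 449 at an unadjusted p under 0.05).

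With the replicate letter as a block 4 genes were called higher, 3 lower and 0 of the 20 members in that fit. The letters are not said to pair the libraries, and the deviations of the A libraries from their group means had a correlation of -0.01 across genes.

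Leaving out 1 library at a time moved the counts most: 1 to 2269 genes were called higher, 3 to 2036 lower and 0 to 14 of the 20 tested members, the upper ends all without knockout A, where the lone knockout B is taken to vary as the WT libraries do. Without knockout B 16 genes were called higher, 11 lower and 0 members, and without WT A 1 higher. The members' median log2 difference ranged from -0.12 (without knockout A) to 0.13 (without knockout B). Directions turned for 8 members without knockout B and for 1 each without WT A (Glra3), WT B (Gabrg3) and knockout A (Gabrg3). Over these fits the log2 difference ran from -0.83 to 0.0152 for Gabra2, -0.66 to 0.24 for Gabra5, -0.74 to 0.0154 for Gabrb1, -0.74 to 0.0489 for Gabrb2, -0.49 to 0.17 for Glra2, -0.35 to 0.00015 for Glrb, -0.25 to 0.11 for Gphn, -0.0644 to 0.199 for Slc12a2, -0.24 to 0.0763 for Glra3 and -0.19 to 0.30 for Gabrg3. Gabrg1 (0.56 to 0.76), Slc12a5 (0.61 to 0.79), Slc6a9 (0.42 to 0.66), Gabra3 (0.35 to 0.52), Gabbr2 (0.24 to 0.38), Slc6a11 (0.22 to 0.33) and Gabbr1 (0.07 to 0.15) stayed above 0. Gabra4 (-0.46 to -0.03) and Gabrd (-0.90 to -0.12) stayed below 0. In each of these genes the groups did not overlap, so leaving out 1 library could not turn the direction. Depth is unknown, so values below about 0.1 FPKM cannot be given an error.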
